A study of Mus musculus with 18 samples.

Results

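Collagens are the main structural proteins of the extracellular matrix, and each is built from 3 chains, identical or different, that wind into a helix inside the cell before secretion. Fibrillar collagens (types I, II, III, V, XI, XXIV and XXVII) form the fibres of the connective tissue stroma and are made largely by fibroblasts. Type IV collagen forms the network of basement membranes under epithelia and around vessels and smooth muscle cells, and the other types bind fibrils, form filaments or short-chain networks, anchor epithelia or span cell membranes. The members were all genes that a probe set naming a single gene assigns a symbol of the form Col, a number, a and a number. They comprised 42 of 18193 genes on the array, on 82 of 45101 probe sets: 11 fibrillar, 6 type IV and 25 other genes.

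TRAMP (Transgenic Adenocarcinoma of the Mouse Prostate) mice carry viral T antigens under a probasin promoter, which is active in prostate epithelium. Which cells of these samples expressed the transgene or each collagen was not measured. The 9 TRAMP tumours were set against 9 normal mouse prostates, taken from ventral and dorsolateral lobes, with total RNA of each sample on 1 array. The labels give no strain, age, treatment or animal of origin, and p-values therefore cover only how these 18 samples vary, which may be in part technical. Values are log2(signal + 16), where the signal is the authors' MAS5 intensity, and differences are tumour minus normal prostate on that scale, which understates the change of dim genes. A probe set was tested if 9 or more of the 18 arrays gave it a signal over their 40th percentile, below which it is called dim, and the tested probe set with the highest mean stood for its gene. Adjusted p-values are from limma with Benjamini-Hochberg adjustment over 12793 genes, and a gene is called where its adjusted p is under 0.05.

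Several arrays stood apart. Seminal vesicle genes (the mean log2 value of 5 genes) stood at 15.16 to 15.55 on tumours 3, 5 and 7, against 13.22 on normal prostate 9, and tumours 6 and 8 stood at 11.21 and 11.27. The remaining tumours lay between 5.09 and 8.64 and the remaining normal prostates between 5.39 and 8.05. On normal prostate 9 the luminal epithelial genes averaged 10.28, against 13.33 to 14.15 on the other normal prostates, so that array went against its label. Skeletal muscle genes (5 genes) averaged 13.22 on normal prostate 1, against 6.49 to 9.03 on the other normal prostates and 6.19 to 8.30 on tumours. The part of skeletal muscle in the collagen differences was not tested. Poly-A spike controls split the arrays into a first technical batch of 5 tumours and 6 normal prostates and a second of 4 tumours and 3 normal prostates. The log2 ratio of 3' to 5' actin probe sets, which grows as RNA degrades, was 1.12 ± 0.506 in tumours and 1.71 ± 0.692 in normal prostates (SD, n = 9 each; exact permutation p = 0.0585, two-sided).

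Of the collagen genes that were higher in tumours, 5 of 6 encode fibrillar chains. Of the 42 collagen genes 30 passed the filter on low values, and 6 of these were higher and 1 was lower in tumours. The higher genes were Col1a1, Col1a2, Col5a1, Col5a2, Col11a1 and Col8a1, and the lower gene was Col20a1. Over all genes tested 11.3% were higher and 12.7% lower. The median difference was 0.57 over the 30 collagen genes, against -0.01 over all genes tested. The 2 groups lay fully apart in 0 of the 30 collagen genes tested. Over all genes 1.45% lay fully apart upward and 0.930% downward, shares at which few or none would be found among 30 genes. In bulk tissue a larger share of collagen-producing cells and more transcript per cell cannot be told apart.

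By class, 5 of 9 fibrillar genes tested were higher and 0 lower, with a median difference of 0.94. Of the 6 type IV genes 0 were called by limma, 0 had an unadjusted p under 0.05, and their median difference was 0.40; with array weights, where 14.1% of all genes were higher and 15.7% lower, 1 was called, Col4a6. Of 15 genes of other classes 1 was higher and 1 lower, with a median of 0.50. Adding Col7a1, Col15a1 and Col18a1, which lie in or beside basement membranes, to the type IV genes left 0 of 9 called, with 1 at an unadjusted p under 0.05 and a median of 0.27. An unadjusted p under 0.05 was found for 5 of 9 fibrillar genes and 6 of 15 genes of other classes. In all, 11 of 30 collagen genes had one, a share similar to the 4749 of 12793 genes tested. These counts describe the classes, and a difference between classes was tested only for the chain pairs given further on. With the actin ratio as a covariate 2 collagen genes were still higher, Col1a1 and Col11a1, and 1 lower, while the calls of Col1a2, Col5a1, Col5a2 and Col8a1 were lost. With that covariate 5.98% of all genes tested were higher and 6.79% lower. In the first batch alone 9 were higher and 0 lower, where 7.28% of all genes were higher and 9.02% lower. In the second, with 4 tumours and 3 normal prostates, limma called 0 genes of any kind at an adjusted p under 0.05. There 4 of 29 collagen genes had an unadjusted p under 0.05, and so had 1628 of all 12644 genes, a similar share.

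**Figure D1:**
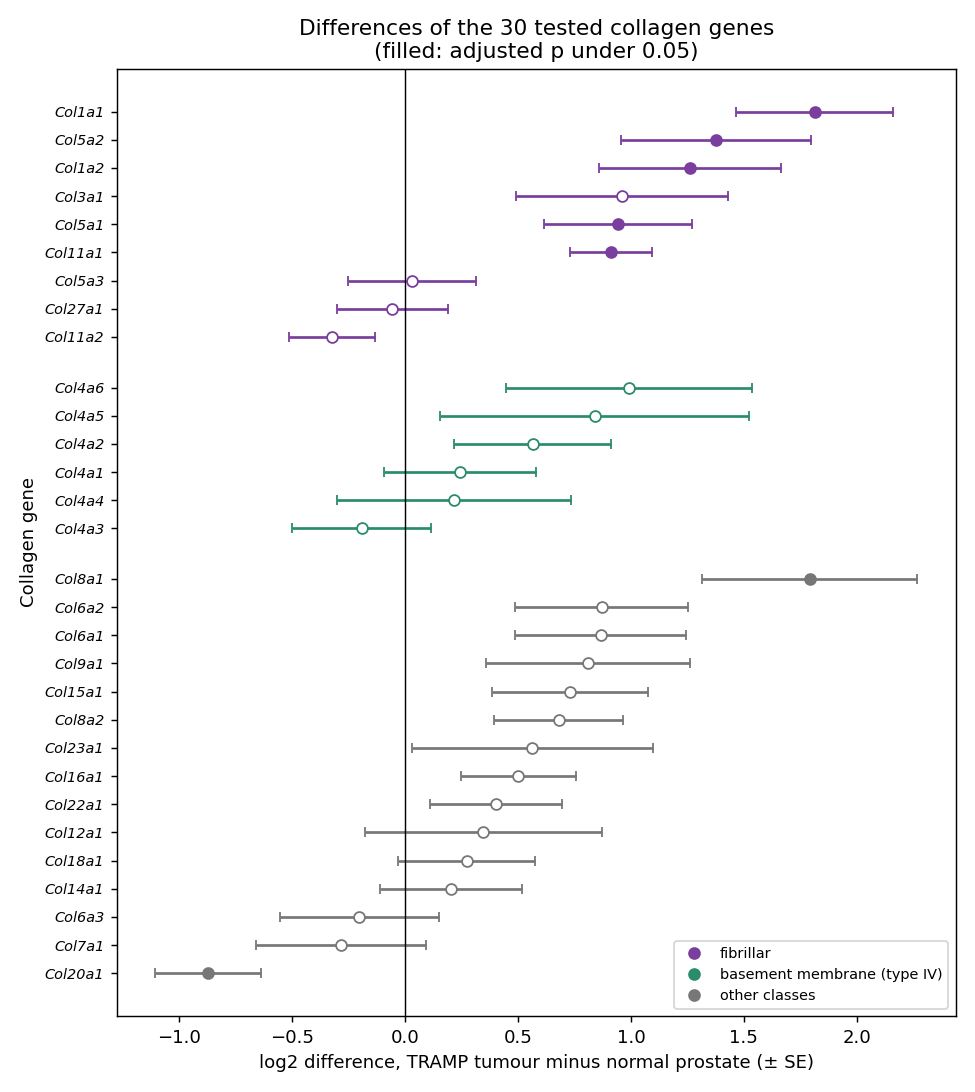
Log2 difference (TRAMP tumour minus normal prostate, x axis, ± SE) for each of the 30 tested collagen genes, grouped by class from top to bottom as fibrillar, type IV and other. Filled points have an adjusted p under 0.05: 5 fibrillar genes and Col8a1 lie to the right of 0 and Col20a1 to the left, and every type IV point is open.

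Type I collagen, the main fibre of stroma, is assembled from products of Col1a1 and Col1a2. Col1a1 ranged from 9.91 to 11.90 (median 11.38) in tumours, against 8.47 to 10.88 (median 9.11) in normal prostates. All 9 tumours lay above the normal median and 6 above the highest normal array, and the highest normal arrays, prostates 3 and 5 at 10.88 and 10.16, overlapped the lower tumours 6, 8 and 9. The difference was 1.81 ± 0.348 SE, a 3.51-fold rise (limma adjusted p = 0.00134). It was 2.24 within the first batch and 1.39 within the second.

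Col1a2 ranged from 10.98 to 13.93 (median 13.25) in tumours, against 10.21 to 13.04 (median 11.92) in normal prostates. Tumour 9 was the low one, and the other 8 tumours lay at 12.72 or above. The difference was 1.26 ± 0.402 SE, 2.40-fold (limma adjusted p = 0.0295), with 1.64 and 0.85 within the batches. The call was lost on leaving out tumour 4 or normal prostate 1, 6 or 7, and also without normal prostate 9 and tumours 3, 5 and 7 (limma adjusted p = 0.0818). Another probe set of Col1a2 rose by 1.98 (adjusted p = 0.0110 over probe sets), and its dimmest tested one measured 0.52 higher (adjusted p = 0.212 over probe sets).

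Col3a1 encodes type III collagen, which forms the finer fibres alongside type I. It ranged from 11.78 to 13.83 (median 12.96) in tumours, against 9.25 to 13.06 (median 12.34) in normal prostates. The groups overlapped over most of their range, and normal prostate 7 was lowest by a wide margin. The difference of 0.96 ± 0.469 SE was not called (limma adjusted p = 0.144). A second, dimmer probe set of the gene was called with a difference of 1.49 (adjusted p = 0.0252 over probe sets, where 10.7% of probe sets were called higher and 10.6% lower). It was called in the first batch alone, with a difference of 1.30.

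Type V collagen starts the growth of type I fibrils and sets their diameter. Its gene Col5a2 ranged from 7.99 to 11.85 (median 10.52) in tumours, against 7.58 to 9.82 (median 8.91) in normal prostates. Tumour 9 was again low, 6 tumours exceeded every normal array, and tumour 2 was highest. The rise was 1.38 ± 0.420 SE, 2.60-fold (limma adjusted p = 0.0237). The call was lost without normal prostate 9 and tumours 3, 5 and 7.

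Col5a1, the partner of Col5a2 in type V, ranged from 8.27 to 10.39 (median 10.02) in tumours, against 7.34 to 9.73 (median 9.02) in normal prostates. Its rise of 0.94 ± 0.328 SE (limma adjusted p = 0.0431) lay close to the threshold. The call stood in 5 of 18 fits that each left out an array, those without tumour 8 or 9 or normal prostate 2, 3 or 9, and not in the other 13. Col5a3, the third chain of the type, did not pass (8.60 ± 0.554 in tumours and 8.57 ± 0.698 in normal prostates, SD, n = 9 each, limma adjusted p = 0.950).

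Col11a1 encodes a chain of type XI collagen, the fibril-initiating relative of type V that is best known from cartilage. It ranged from 7.56 to 8.75 (median 8.45) in tumours, against 6.69 to 7.81 (median 7.38) in normal prostates. Tumours 7 and 8 lay inside the normal range and the other 7 above it. The rise of 0.91 ± 0.181 SE, 1.88-fold (limma adjusted p = 0.00169), kept its call in all 18 fits that left out an array. A second, dimmer probe set of the gene did not pass the filter; it was above the percentile on 7 tumour arrays and on 0 normal arrays.

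The other type XI gene tested, Col11a2, measured 7.09 ± 0.479 in tumours and 7.41 ± 0.300 in normal prostates (SD, n = 9 each) and was dim on 6 tumour arrays. Col27a1, a fibrillar chain of cartilage and other tissues, measured 8.92 ± 0.624 in tumours and 8.97 ± 0.435 in normal prostates (limma adjusted p = 0.893). Of 6 listed markers of cartilage and bone 3 were tested and 0 called, and their mean ranged from 6.83 to 7.79 in tumours, against 7.11 to 8.09 in normal prostates. The remaining fibrillar genes, Col2a1 of cartilage and Col24a1, were dim on all 18 arrays.

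**Figure D2:**
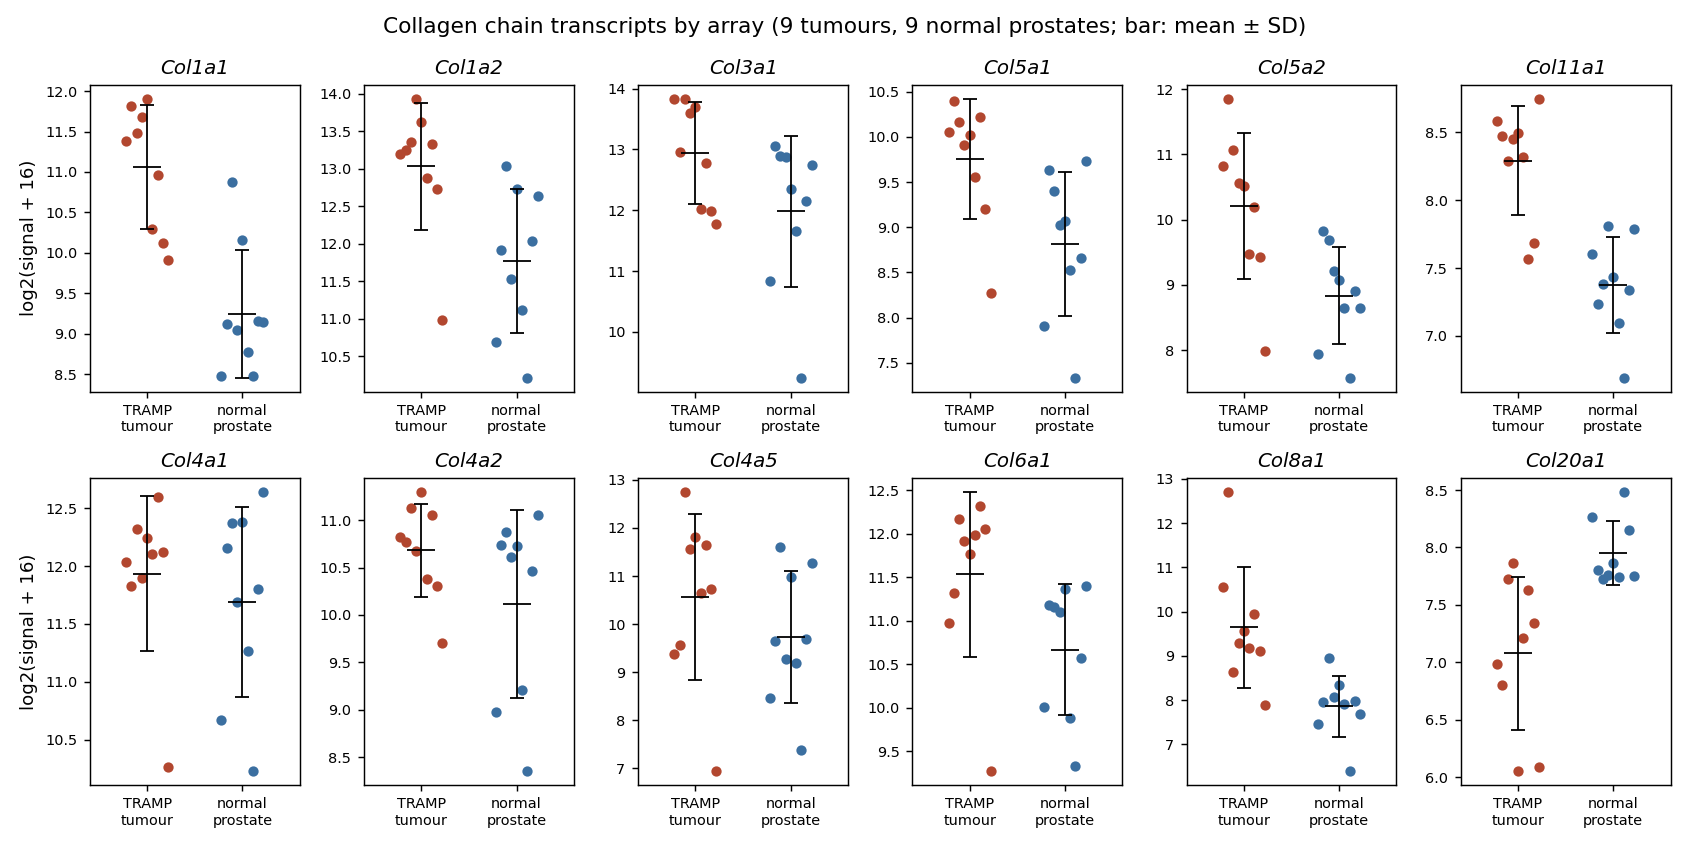
Log2(signal + 16) on the y axis of each array (points, replicates 1 to 9 from left to right within a group) for 12 collagen genes in TRAMP tumours and normal prostates, with the mean and SD in black; each panel has its own scale. Most tumours lie above most normal arrays for Col1a1, Col5a2, Col11a1 and Col8a1, the groups overlap for Col4a1 and Col4a2, and the rightmost tumour point, tumour 9, is the lowest tumour in 10 of the 12 panels.

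In type IV collagen the genes Col4a1 and Col4a2 encode the chains found in nearly all basement membranes. Col4a1 ranged from 10.26 to 12.60 (median 12.10) in tumours, against 10.23 to 12.64 (median 11.81) in normal prostates, so the ranges nearly coincided. Its difference was 0.24 ± 0.335 SE (limma adjusted p = 0.631). Col4a2 ranged from 9.70 to 11.29 (median 10.77) in tumours, against 8.36 to 11.06 (median 10.61) in normal prostates, with a difference of 0.57 ± 0.347 SE (limma adjusted p = 0.246). For both genes the lowest tumour was tumour 9 and the lowest normal array was normal prostate 7.

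Col4a5 and Col4a6, neighbours on the X chromosome, encode chains of a basement membrane network known from smooth muscle and some epithelia. Col4a5 had the largest SD within each group of all 30 tested collagen genes, 1.73 in tumours and 1.37 in normal prostates. It ranged from 6.95 to 12.75 (median 10.74) in tumours, against 7.38 to 11.61 (median 9.65) in normal prostates. The highest values were on tumours 3, 5 and 7 (12.75, 11.81 and 11.65), tumour 4 (11.57) and normal prostates 3 and 9 (11.61 and 11.26), and the lowest on tumour 9 and normal prostate 7. Its difference of 0.84 ± 0.683 SE was not called (limma adjusted p = 0.390), nor was that of Col4a6, 0.99 ± 0.543 SE (limma adjusted p = 0.194). Tumours 3 and 5, highest in Col4a5, had smooth muscle means (7 genes) of 11.98 and 10.77, below tumours 6, 7 and 8 at 13.61 to 13.94. Tumour 7, with Col4a5 at 11.65, had the highest smooth muscle mean of the tumours, 13.94. Tumour 9, lowest in Col4a5, also had the lowest smooth muscle mean, 8.44. Among normal prostates, numbers 3, 5 and 9 were highest in both Col4a5 and the smooth muscle mean, which was 13.38, 13.54 and 13.61 there. The part of smooth muscle in Col4a5 was not tested.

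Col4a3 and Col4a4 encode chains best known from the kidney glomerulus, and Col4a3 was dim on 5 tumour arrays and Col4a4 on 4. Col4a3 measured 7.10 ± 0.532 in tumours and 7.29 ± 0.808 in normal prostates (SD, n = 9 each). Col4a4 fell into separate groups among the tumours, with 8.65 to 9.47 on tumours 3, 5, 6, 7 and 8 and 6.07 to 6.86 on tumours 1, 2, 4 and 9, against 5.45 to 8.51 in normal prostates. The 5 tumours with the higher Col4a4 values were the ones high in seminal vesicle genes (11.21 to 15.55, against 5.09 to 8.64 on the other 4), while normal prostate 9, with 13.22, had 8.01, inside the normal range. The part of seminal vesicle tissue was not tested. Over all tumours the difference was 0.22 ± 0.518 SE (limma adjusted p = 0.795). Without those 5 tumours and normal prostate 9 it turned to -1.19 (limma adjusted p = 0.0573).

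The promoters of 3 chains that rose (Col1a2, Col11a1 and Col8a1) and of the type IV pair Col4a1 and Col4a2, which did not pass, are shown to set their start regions side by side. They come from RefSeq, build GRCm38.p6, and run from 150 bases before to 30 after the annotated start, 5′ to 3′ on the strand of the gene. Capitals mark a CCAAT box (CCAAT or its reverse complement ATTGG), a GC box (GGGCGG or its reverse complement CCGCCC) and a TATA box (TATAAA or its reverse complement TTTATA), none of which overlap here. Col1a2 is at chr6:4505468-4505647 (plus strand), Col11a1 at chr3:114030390-114030569 (plus), Col8a1 at chr16:57754708-57754887 (minus), Col4a1 at chr8:11312797-11312976 (minus) and Col4a2 at chr8:11312655-11312834 (plus).
Col1a2: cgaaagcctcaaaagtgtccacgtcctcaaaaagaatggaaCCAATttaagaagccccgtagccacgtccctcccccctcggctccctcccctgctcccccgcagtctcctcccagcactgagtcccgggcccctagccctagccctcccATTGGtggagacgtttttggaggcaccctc
Col11a1: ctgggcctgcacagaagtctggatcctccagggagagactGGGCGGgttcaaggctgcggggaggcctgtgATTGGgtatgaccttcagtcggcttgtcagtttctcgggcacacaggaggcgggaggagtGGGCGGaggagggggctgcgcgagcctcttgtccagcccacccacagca
Col8a1: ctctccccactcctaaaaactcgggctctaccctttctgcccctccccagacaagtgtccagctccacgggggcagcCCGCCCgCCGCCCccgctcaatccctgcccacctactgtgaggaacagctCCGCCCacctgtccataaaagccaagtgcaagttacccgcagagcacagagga
Col4a1: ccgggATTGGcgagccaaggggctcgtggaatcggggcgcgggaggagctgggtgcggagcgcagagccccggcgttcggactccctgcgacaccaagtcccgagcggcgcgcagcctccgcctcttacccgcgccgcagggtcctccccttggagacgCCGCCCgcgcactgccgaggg
Col4a2: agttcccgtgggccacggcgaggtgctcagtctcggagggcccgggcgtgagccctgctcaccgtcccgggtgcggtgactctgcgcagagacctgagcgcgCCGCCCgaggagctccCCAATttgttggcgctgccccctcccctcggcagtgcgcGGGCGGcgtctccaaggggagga

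Col4a1 and Col4a2 are transcribed from opposite strands, and the annotated starts used here lie 21 bases apart, so their start regions share sequence. Col11a1 holds GC boxes that begin at positions -110 and -19 and a CCAAT box, as ATTGG, at -79. Col8a1 holds 3 GC boxes, all as CCGCCC, at -73, -66 and -23. Col1a2 has CCAAT at -109 and ATTGG at 1, and no GC box in this window. A TATAAA was found in 8.37% of all 32851 promoter windows of this length, a CCAAT in 27% and a GGGCGG in 31%, on either strand. Promoters were matched for 33 of the 42 collagen genes; of their 36 windows 4 held a TATAAA, 8 a CCAAT and 20 a GGGCGG. These are letter matches and not measured binding sites.

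Outside the fibrillar and type IV classes Col8a1 showed the largest rise. Type VIII collagen is a short-chain, network-forming collagen known from vessel walls and from the membrane beneath the corneal endothelium. Col8a1 ranged from 7.89 to 12.70 (median 9.28) in tumours, against 6.40 to 8.95 (median 7.95) in normal prostates. Tumour 2 was highest at 12.70 and tumour 1 next at 10.55, and 7 of 9 tumours exceeded every normal array. The rise was 1.79 ± 0.476 SE, 3.46-fold (limma adjusted p = 0.0110), and kept its call in all 18 fits that left out an array. Within the batches it was 2.03 and 1.68.

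Col8a2, the other gene of type VIII, was 8.34 ± 0.767 in tumours and 7.66 ± 0.454 in normal prostates (SD, n = 9 each, limma adjusted p = 0.0885) and was highest on tumour 9, at 9.83. Of 6 listed endothelial markers 5 were tested and 0 called, and their mean ranged from 6.83 to 8.52 in tumours, against 6.15 to 8.63 in normal prostates.

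Col20a1, which encodes a chain of the group that binds to fibril surfaces, was the only collagen gene lower in tumours. It ranged from 6.06 to 7.87 (median 7.21) in tumours, against 7.73 to 8.48 (median 7.80) in normal prostates. The normal arrays lay close together, and 5 of 9 tumour arrays were dim, under the 40th percentile. The difference was -0.87 ± 0.235 SE (limma adjusted p = 0.0120), or -0.58 with dim values raised to the percentile. A second tested probe set of the gene was not called, with a difference of -0.68 (adjusted p = 0.268 over probe sets), and the call was lost in the first batch alone.

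Type VI collagen forms beaded filaments around cells from the products of Col6a1, Col6a2 and Col6a3. Col6a1 ranged from 9.27 to 12.32 (median 11.92) in tumours, against 9.33 to 11.40 (median 11.10) in normal prostates, a difference of 0.87 ± 0.379 SE (limma adjusted p = 0.104). Tumour 9 lay below every normal array, while 6 tumours lay above every normal array. Col6a2 differed by 0.87 ± 0.383 SE (limma adjusted p = 0.105). A second tested probe set of Col6a2 was called higher, with a difference of 0.88 (limma adjusted p = 0.0383 over probe sets, where 10.7% of probe sets were called higher). The gene was called in 5 of 37 alternative fits, among them array weights, the Wilcoxon test and the first batch alone. Without tumour 9 the calls of Col6a1, Col6a2 and Col16a1 were gained, and 9 collagen genes were higher, where 10.2% of all genes were higher and 11.2% lower. Col6a3 differed by -0.20 ± 0.352 SE (limma adjusted p = 0.711), with 11.19 ± 1.07 in tumours and 11.40 ± 0.324 in normal prostates (SD, n = 9 each). Without tumour 9 that difference was 0.13.

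Collagens at the edge of basement membranes did not pass in the main fit. Col15a1, whose product links basement membranes to the fibres beneath, ranged from 7.82 to 10.38 (median 9.30) in tumours, against 6.96 to 9.23 (median 8.42) in normal prostates, a difference of 0.73 ± 0.345 SE (limma adjusted p = 0.130). In the first batch alone Col15a1 was called higher, with a difference of 1.14 (limma adjusted p = 0.0411), where 7.28% of all genes were higher. Col18a1, the source of the endostatin fragment, ranged from 8.76 to 10.66 (median 9.75) in tumours, against 8.87 to 10.63 (median 9.36) in normal prostates, a difference of 0.27 ± 0.304 SE (limma adjusted p = 0.544). Col7a1, the anchoring fibril collagen of stratified epithelia, differed by -0.28 ± 0.375 SE (limma adjusted p = 0.619). It was lower in tumours and called once normal prostate 9 and tumours 3, 5 and 7 were left out, of which tumours 5 and 7 were its highest tumours at 10.71 and 10.60.

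The other genes tested were Col9a1, Col12a1, Col14a1, Col16a1, Col22a1 and Col23a1, with differences of 0.81, 0.35, 0.21, 0.50, 0.40 and 0.56 and limma adjusted p-values of 0.158 to 0.671. Col9a1, Col12a1, Col14a1, Col16a1 and Col22a1 encode chains that bind to fibril surfaces, and Col23a1 encodes a membrane-spanning collagen. Col9a1 passed the filter in 25 of 37 alternative fits and was called higher in 1 of them. That fit left out normal prostate 9 and tumours 3, 5 and 7 (difference 1.36, limma adjusted p = 0.0261), and 1781 of 12814 genes were higher in it. Col23a1 was highest on tumours 3 and 7 and normal prostate 9, at 9.88, 9.56 and 9.74, which are arrays high in seminal vesicle genes. On tumour 5, the array highest in those genes, it was 8.02. The part of seminal vesicle tissue in Col23a1 was not tested.

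Below the filter were 12 genes, Col2a1, Col6a4, Col6a5, Col9a2, Col9a3, Col10a1, Col13a1, Col17a1, Col19a1, Col24a1, Col25a1 and Col26a1. Col17a1, of the epithelial anchoring complex called the hemidesmosome, ranged from 4.59 to 7.92 in tumours, against 4.62 to 6.07 in normal prostates, with tumours 2, 3, 4 and 5 at 7.15 or above. The membrane-spanning Col25a1 ranged from 5.83 to 8.49 in tumours, against 6.09 to 9.01 in normal prostates. Its highest values, on tumour 4 and normal prostates 3 and 5, were on the arrays highest in urothelial genes (13.67 on tumour 4, against 13.85 and 12.15 on those normal prostates, as the mean of 4 genes), and the part of that tissue was not tested. In tumours the mean of each of the 12 lay between 4.92 (Col9a2) and 6.93 (Col13a1), and in normal prostates between 4.46 (Col9a2) and 7.45 (Col13a1). Col9a3, another fibril-associated chain, was dim on all 9 normal arrays and on 6 of 9 tumour arrays, with 9.32 on tumour 9, 8.53 on tumour 1 and 8.34 on tumour 3, against at most 6.11 in normal prostates. It was called higher with the filter removed. These values and that call come from the brightest of the 3 probe sets of Col9a3. Its other probe sets were dim on all 9 tumour arrays and all 9 normal arrays, with differences of 0.16 and 0.18. Tumours 9 and 1, the highest in Col9a3, were also the highest in neuroendocrine genes, with a mean of 10.94 and 10.58 over 5 genes. Tumour 3 stood at 7.19. Of these 5 genes 2 passed the filter, and the part of neuroendocrine cells in Col9a3 was not tested.

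**Figure D3:**
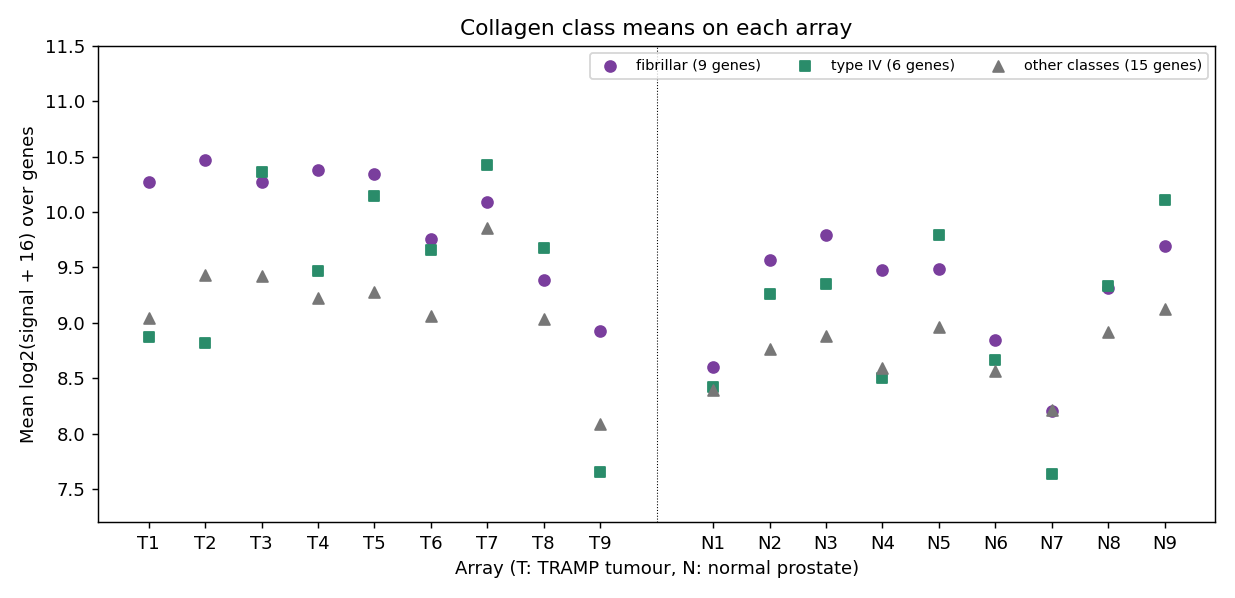
Mean log2(signal + 16) on the y axis over the 9 fibrillar, 6 type IV and 15 other collagen genes tested, for each TRAMP tumour (T1 to T9) and normal prostate (N1 to N9). Within a class the arrays can be compared, while heights of different classes come from different probe sets and cannot; T9 and N7 are lowest in their groups in all 3 classes.

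In each group 1 array stood low in all 3 collagen classes. The mean over the 30 genes ranged from 8.25 to 10.04 (median 9.62) in tumours, against 8.09 to 9.49 (median 9.11) in normal prostates. Tumour 9 was the lowest tumour for 22 of the 30 genes, and normal prostate 7 the lowest normal array for 17. The fibrillar mean was 8.93 on tumour 9 and 9.39 to 10.47 on the other tumours, against 8.21 on normal prostate 7 and 8.60 to 9.79 on the other normal arrays. The other arrays ranked differently by class: tumour 2 was the highest tumour in the fibrillar mean, at 10.47, and second lowest in the type IV mean, at 8.82. Tumour 9 was the highest tumour for Col11a1, Col8a2 and Col22a1, at 8.75, 9.83 and 9.29.

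The mean of 9 fibroblast markers was 9.22 on tumour 9 and 9.93 to 10.65 on the other tumours, against 7.76 on normal prostate 7 and 8.88 to 10.49 on the other normal prostates. All 9 were tested, 1 was higher (Thy1) and 0 lower, and their median difference was 0.80; Dcn and Lum also stand in the collagen-binding list. Of smooth muscle markers 7 of 7 were tested and 0 called, and their mean ranged from 8.44 to 13.94 in tumours, against 9.75 to 13.61 in normal prostates. Of adipocyte markers 5 of 7 were tested and all 5 were lower in tumours, with a median difference of -4.23. Their mean ranged from 5.91 to 9.32 in tumours, against 6.10 on normal prostate 7 and at least 9.39 on the other normal prostates. Of luminal epithelial markers 3 of 5 were tested and 1 was lower, with a median difference of -1.31, and their mean ranged from 8.97 to 12.67 in tumours, against 10.28 to 14.15 in normal prostates. Normal prostate 7 had the highest luminal mean, 14.15, and the highest actin ratio, 2.48. The part of these cell types in the collagen differences was not tested. Without normal prostate 7 and tumour 9, an alternative chosen after these values were seen, 9 collagen genes were higher and 1 lower, where 8.37% of all genes were higher and 8.95% lower.

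Chains that assemble together, or that belong to different classes, were compared through their difference on each array, which shows whether they changed unequally. Of 14 listed pairs 12 had both chains tested; p-values are from an exact two-sided permutation test over all splits of the 18 arrays into 9 and 9, adjusted over the 12 pairs. Col1a1 rose relative to Col4a1, by 1.57 (exact permutation p = 0.000494, adjusted p = 0.00296), so the fibrillar chain and the basement membrane chain changed unequally. The difference Col1a1 minus Col4a1 ranged from -2.01 to -0.01 in tumours, against -3.49 to -1.50 in normal prostates, a scale whose zero depends on the probe sets. Col3a1 relative to Col4a1 shifted by 0.72 (adjusted p = 0.0984), and Col1a1 relative to Col6a1 by 0.95 (adjusted p = 0.0884).

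Within type XI, Col11a1 rose relative to Col11a2 by 1.24 (exact permutation p = 4.11e-05, the smallest these splits can give, adjusted p = 0.000494). The difference ranged from 0.53 to 2.42 in tumours, against -1.29 to 0.47 in normal prostates. Col11a2 was dim on 6 of 9 tumour arrays, so the size of this shift is poorly measured. With dim values raised to the percentile, an alternative chosen after these values were seen, the shift was 0.95 (exact permutation adjusted p = 0.00247) and the groups overlapped, with 0.29 to 1.84 in tumours, against -0.90 to 0.46 in normal prostates. Within type VI, Col6a2 rose relative to Col6a3 by 1.07 (exact permutation p = 0.00313, adjusted p = 0.0125), from -0.39 to 0.71 in tumours, against -3.38 to 0.01 in normal prostates, where the lowest value was that of normal prostate 7. Col6a1 and Col6a2 shifted against each other by -0.01 (adjusted p = 0.970).

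Chains of types I, IV, V and VIII did not pass as pairs. Col1a1 minus Col1a2 shifted by 0.55 (adjusted p = 0.0884), Col4a1 minus Col4a2 by -0.32 (adjusted p = 0.110), Col5a1 minus Col5a2 by -0.43 (adjusted p = 0.120) and Col8a1 minus Col8a2 by 1.11 (adjusted p = 0.120). Col8a1 minus Col8a2 ranged from -1.93 to 4.84 in tumours, against -0.62 to 1.31 in normal prostates, and without tumour 9 the shift was 1.52 with an adjusted p of 0.00954. Col4a3 minus Col4a4 shifted by -0.41 (adjusted p = 0.571) and Col4a5 minus Col4a6 by -0.15. In the second batch alone 10 of the 12 pairs could be tested, without Col11a1 minus Col11a2 and Col4a3 minus Col4a4. The 35 splits of its 4 tumours and 3 normal prostates allow no exact permutation p under 0.0286, and no pair passed (smallest adjusted p = 0.476); Col1a1 minus Col4a1 shifted by 1.18 and Col6a2 minus Col6a3 by 1.51.

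**Figure D4:**
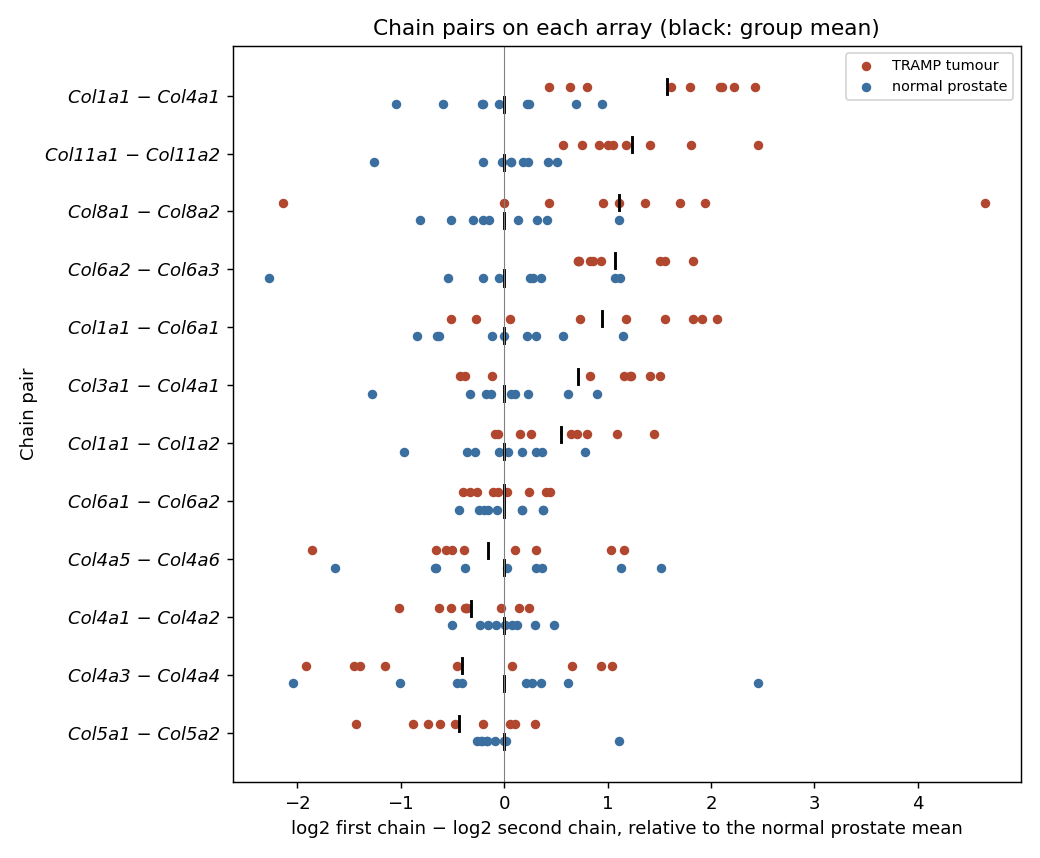
For 12 pairs of collagen chains, the log2 value of the first chain minus that of the second on each array (x axis, relative to the mean of normal prostates), with tumours above and normal prostates below in each row and group means in black. Tumour means lie farthest to the right for Col1a1 − Col4a1 and Col11a1 − Col11a2, by 1.57 and 1.24, and at about 0 for Col6a1 − Col6a2.

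Genes for the enzymes and partners that fold, cut, cross-link and bind collagen were taken from a list. Of its 37 genes on the array 31 were tested, 4 were higher and 1 lower, with a median difference of 0.35, where 11.3% of all genes were higher and 12.7% lower. P4ha1 and P4ha2 encode the catalytic subunits of prolyl 4-hydroxylase, which stabilises the helix. P4ha1 ranged from 7.56 to 9.67 (median 8.73) in tumours, against 7.04 to 8.34 (median 8.02) in normal prostates, a rise of 0.84 ± 0.247 SE (limma adjusted p = 0.0197). Of the tumours 7 exceeded every normal array. P4ha2 rose by 0.87 ± 0.289 SE (limma adjusted p = 0.0353), and P3h3, of the prolyl 3-hydroxylase family, by 0.74 ± 0.216 SE (limma adjusted p = 0.0185).

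P4hb, which encodes the other prolyl 4-hydroxylase subunit and is a general disulphide isomerase of the endoplasmic reticulum, was lower. It ranged from 11.80 to 14.29 (median 13.63) in tumours, against 13.27 to 15.14 (median 14.32) in normal prostates (difference -0.95 ± 0.318 SE, limma adjusted p = 0.0364). The collagen chaperone gene Serpinh1 differed by 0.33 ± 0.319 SE (limma adjusted p = 0.475). Mia3, needed to load collagen into secretory vesicles, differed by -0.52 (limma adjusted p = 0.0509), and the lysyl hydroxylase genes Plod1 and Plod3 by 0.82 and 0.38 (limma adjusted p = 0.0828 and 0.0799).

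Outside the cell, 0 of 5 tested genes for processing and cross-linking enzymes passed. An unadjusted p under 0.05 was found for 2 of them, and for 4749 of all 12793 genes tested. Lox, a lysyl oxidase that cross-links fibrils, ranged from 8.23 to 11.66 (median 10.04) in tumours, against 7.10 to 9.57 (median 8.68) in normal prostates, with a difference of 1.19 ± 0.439 SE (limma adjusted p = 0.0547). Loxl3 differed by 0.52 (limma adjusted p = 0.107). Of 11 tested genes for collagen-binding proteoglycans and receptors, Bgn, which encodes biglycan, rose by 0.90 ± 0.321 SE (limma adjusted p = 0.0497). Bgn exceeded every normal array in 8 of 9 tumours. Dcn, which encodes the related proteoglycan decorin, differed by -0.90 (limma adjusted p = 0.225). The count of 4 higher genes was 8 without tumour 9, 2 without tumour 1 or 2 or normal prostate 4, 6 or 7, and 0 with the actin ratio as a covariate. Over all genes 10.2% were higher without tumour 9 and 5.98% with the actin ratio. In the fits that gave 2, from 1125 to 1322 of all genes were higher, against 1444 in the main fit. The call of P4hb was lost in 11 of 18 fits that left out an array.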

How the data were processed

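Total RNA was hybridised to 1 Affymetrix array a sample. The values are intensities that the authors deposited; the submitters' processing notes name MAS5 (version not given in the sources used here). Every array has a 2% trimmed mean of 500, so each was scaled by a factor of its own. Dim probe sets are noisy at this scale, and no detection calls were used. Groups and replicate numbers came from the labels. Gene names came from GEO's platform annotation, in which 34945 of 45101 probe sets carry a single symbol, 932 more than 1 and 9160 no symbol, beside 64 controls. Identifiers of all 42 collagen genes matched a GRCm38.p6 gene table, with no symbol changed.

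No normalization was added before log2(signal + 16) was taken. Probe sets above the 40th percentile on at least 9 of 18 arrays were tested with limma 3.58.1 in R 4.3.3 (group only), 1 probe set a gene, and the code was tested on simulated data. The number of arrays limits the precision. The members and lists were chosen with earlier results of these data known. All 42 genes are accounted for; values by array are given for genes called and for Col1a1, Col1a2, Col3a1, Col4a1, Col4a2, Col5a2, Col6a1, Col15a1 and Col18a1, and from the assembly and binding list for up to 10 genes by absolute t. Other genes with values by array were chosen after these were seen. Alternatives were pseudocounts of 1 and 64, filters, normalizations, probe set summaries, array weights, an intensity trend, a Wilcoxon test, blocks, batches, the actin ratio and omitted arrays. Python 3.11.15 and matplotlib 3.10.9 made the plots.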

Additional observations from a re-analysis of the deposited data

Results flagged for a closer look

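Single arrays far from the rest of their group were found in 7 of 60 combinations of 30 genes and 2 groups, where chance gives about 5% of combinations. Tumour 9 was the low array in 5 of them: Col1a2 at 10.98 (next lowest 12.72), Col4a1 at 10.26 (next 11.83), Col6a1 at 9.27 (next 10.98), Col6a2 at 8.96 and Col6a3 at 8.56 (next 10.55). The same tumour was far above the others in Col22a1, at 9.29 (next highest 7.84). Normal prostate 3 was far below the other normal arrays in Col4a4, at 5.45 (next lowest 7.31). The 5 low values on tumour 9 share 1 array and are not separate observations.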

How the results depend on the processing

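The 6 collagen genes higher in tumours were 10 with array weights, 0 in the second batch alone and 2 with the actin ratio as a covariate; the other alternatives gave 4 to 9. The 1 lower gene was 0 with a 60th percentile filter, with the mean of probe sets and in either batch alone, and 2 without normal prostate 9 and tumours 3, 5 and 7, with or without tumours 6 and 8. Over all genes 2167 of 12814 were lower without normal prostate 9 and tumours 3, 5 and 7. The count was 2720 of 12870 without tumours 6 and 8 as well, against 1623 of 12793 in the main fit. Of assembly and binding genes the 4 higher were 10 with array weights, 2 with the Wilcoxon test, 0 in the second batch and 0 with the actin ratio. The 1 lower was 2 with pseudocount 64, a 60th percentile filter, 75th percentile centring, the mean of probe sets, array weights, an intensity trend or the batch block, 3 without probe sets that can match several transcripts, and 0 with quantile normalization, in either batch, with the actin ratio or without normal prostate 7 and tumour 9 (chosen after seeing the data). It was 4 without normal prostate 9 and tumours 3, 5 and 7, and 6 without tumours 6 and 8 as well, fits in which more of all genes were lower too. Leaving out each array gave 2 to 8 higher and 0 to 2 lower. The cause of these changes was not tested.

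Several genes that were not called turned direction. Col5a3 was -0.061 with quantile normalization or array weights, -0.047 with 75th percentile centring, -0.11 in the second batch, -0.064 with the actin ratio and -0.053 without normal prostate 7 and tumour 9. Col14a1 was -0.19 with the mean of probe sets, -0.064 in the second batch and -0.15 with the actin ratio. Col27a1 was 0.22 and Col6a3 0.078 with array weights, and 0.026 and 0.20 without normal prostate 7 and tumour 9. In the first batch Col11a2 was 0.022 and Col6a3 0.083. In the second Col18a1 was -0.37 and Col23a1 -0.63. Without normal prostate 9 and tumours 3, 5 and 7 Col12a1 was -0.011 and Col4a4 -0.36. Without tumours 6 and 8 as well Col4a4 was -1.19, Col16a1 -0.064, Col23a1 -0.18, Col4a1 -0.067 and Col4a5 -0.16. Col4a1 was -0.079 with the actin ratio. Leaving out each array gave -0.20 to 0.056 for Col27a1, -0.064 to 0.45 for Col4a4, -0.11 to 0.16 for Col5a3 and -0.30 to 0.13 for Col6a3.

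Of the chain pairs, Col1a1 minus Col1a2 passed with the mean of probe sets (0.87), in the first batch (0.61) and without normal prostate 9 and tumours 3, 5, 6, 7 and 8 (0.76). Col3a1 minus Col4a1 passed in the same settings (1.08, 0.99 and 1.22), and so did Col1a1 minus Col6a1 (1.26, 1.39 and 1.64). Col4a1 minus Col4a2 passed in the first batch (-0.44) and without those 6 arrays (-0.56), Col5a1 minus Col5a2 in the first batch (-0.72) and Col8a1 minus Col8a2 without normal prostate 7 and tumour 9 (1.42). In the second batch Col6a2 minus Col6a3 (1.51) and Col1a1 minus Col4a1 (1.18) did not pass. The sign turned for Col4a5 minus Col4a6 with pseudocount 64 (0.025), in the first batch (0.16) and with dim values raised to the percentile (0.17), for Col4a3 minus Col4a4 without the 6 arrays (0.72), and for Col6a1 minus Col6a2 with pseudocount 64 (0.0033), quantile normalization (0.023), in the second batch (0.086) and without normal prostate 7 and tumour 9 (0.049). Leaving out each array gave 0.43 to 0.65 for Col1a1 minus Col1a2, -0.39 to -0.24 for Col4a1 minus Col4a2, -0.36 to 0.061 for Col4a5 minus Col4a6, -0.061 to 0.044 for Col6a1 minus Col6a2, 0.67 to 1.52 for Col8a1 minus Col8a2, 0.56 to 0.86 for Col3a1 minus Col4a1 and 0.81 to 1.13 for Col1a1 minus Col6a1. The labels number the replicates of both groups alike and do not say whether same-numbered samples are paired. Deviations of same-numbered arrays correlated by -0.106 to 0.314, with the highest value for replicate 8. Such correlations cannot decide whether the samples were paired, and the main fit used no pairing. With the replicate block 4 collagen genes were higher, and no call of a chain pair changed. Dim genes limit what can be seen: 12 collagen genes gave no test.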
